A study of Homo sapiens with 18 samples.

Results

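A family of 6 aldo-keto reductases (AKRs) of human endothelial cells were followed across a knockdown of ELMO1 and a stimulation with double-stranded RNA. The members were found by gene symbol in the gene matrix and make up 6 of its 62754 genes: AKR1A1, AKR1B1, AKR1B10, AKR1C1, AKR1C2 and AKR1C3. The family was chosen by its measured fold changes in siELMO1 against the controls, among which AKR1C1 at 24 h had already stood out, so the values of siELMO1 against Mock and siNT are given below as a description with no test. The cells were EA.hy926, a hybrid line obtained by fusing umbilical vein endothelium (HUVEC) with A549, a line of lung epithelial origin. Mock cells received the transfection reagent alone, siNT cells a non-targeting siRNA at 10 nM, and siELMO1 cells a pool of 3 siRNAs against ELMO1 at 10 nM. Cells were kept in low serum overnight and were lysed 48 h after transfection (0 h) or treated from then on for 24 h with 1 μg/ml poly(I:C), a synthetic double-stranded RNA that is sensed by Toll-like receptor 3 (TLR3). Each of the 6 conditions had 3 libraries, described by the study as biological replicates, which gives 18 libraries of 1 cell line.

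AKRs are NADPH-dependent enzymes that reduce aldehydes and ketones to alcohols. AKR1A1 is the general aldehyde reductase. AKR1B1 is aldose reductase, which turns glucose into sorbitol in the first step of the polyol pathway, and AKR1B10 is its relative that prefers retinal and lipid aldehydes. The AKR1C enzymes are hydroxysteroid dehydrogenases: AKR1C1 inactivates progesterone, AKR1C2 inactivates dihydrotestosterone, and AKR1C3 makes testosterone from androstenedione and reduces prostaglandin D2. Several of the human AKR1B and AKR1C genes are known targets of NRF2 (NFE2L2), the transcription factor of the oxidative stress response.

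AKR1A1 (ENSG00000117448.14) lies on the plus strand of chromosome 1, 45550543 to 45570049 (GRCh38). AKR1B1 (ENSG00000085662.14) lies on the minus strand of chromosome 7, 134442356 to 134459284, and AKR1B10 (ENSG00000198074.10) on the plus strand of the same chromosome, 134527567 to 134541412. The AKR1C genes lie side by side on chromosome 10: AKR1C1 (ENSG00000187134.14) on the plus strand, 4963253 to 4983283, AKR1C2 (ENSG00000151632.18) on the minus strand, 4987775 to 5018031, and AKR1C3 (ENSG00000196139.14) on the plus strand, 5035354 to 5107686. AKR1C2 overlaps a lncRNA (ENSG00000224251) and a U8 snoRNA annotated on the other strand, and AKR1C3 overlaps a U8 snoRNA on the other strand. The remaining members overlap no annotated gene.

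The members differ in how well short reads can tell them apart. The coding sequences of the canonical AKR1C1 and AKR1C2 transcripts have 969 bases each and differed at 19 of them. Of these differences, 10 fall within 120 bases, coding bases 43 to 162. These bases are shown because a read inside the coding sequence must cover such differences to be assigned to 1 of the 2 genes. Capitals mark the bases that differ.
AKR1C1 coding stretch: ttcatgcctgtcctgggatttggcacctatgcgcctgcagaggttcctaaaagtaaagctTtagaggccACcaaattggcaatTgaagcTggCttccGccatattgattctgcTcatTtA
AKR1C2 coding stretch: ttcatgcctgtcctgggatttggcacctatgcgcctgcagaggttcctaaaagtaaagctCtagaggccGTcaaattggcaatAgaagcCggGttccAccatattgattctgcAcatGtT
Of all windows of 100 bases in the canonical transcripts, 12.6% of AKR1C1, 27.8% of AKR1C2 and 7.82% of AKR1C3 also occurred in a transcript of another AKR1C gene. AKR1B10 shared 1.97% of its windows with AKR1B15 or the pseudogene AKR1B10P1, and AKR1A1 and AKR1B1 shared none. The counts of AKR1C1 and AKR1C2 are therefore given separately and also as a sum.

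The 250 bases before the start sites of the 3 AKR1C genes and of AKR1B1 are shown because AKR1C1 and AKR1C3 had the most similar profiles among the members and AKR1B1 had the largest response to poly(I:C) of the 5 members that passed the filter on low counts. They come from RefSeq (GRCh38.p14), 5′ to 3′ on the strand of the gene, and each window ends at the base before the start of the canonical transcript. Capitals mark CCAAT or its reverse complement ATTGG. The windows are chr10:4963165-4963414 (plus strand) for AKR1C1, chr10:5003858-5004107 (minus strand) for AKR1C2, chr10:5094164-5094413 (plus strand) for AKR1C3 and chr7:134459101-134459350 (minus strand) for AKR1B1.
AKR1C1 promoter: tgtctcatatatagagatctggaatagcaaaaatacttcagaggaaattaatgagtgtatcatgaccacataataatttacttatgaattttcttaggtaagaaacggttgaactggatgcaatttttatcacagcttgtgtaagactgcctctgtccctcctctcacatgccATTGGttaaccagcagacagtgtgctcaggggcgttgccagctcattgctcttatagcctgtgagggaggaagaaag
AKR1C2 promoter: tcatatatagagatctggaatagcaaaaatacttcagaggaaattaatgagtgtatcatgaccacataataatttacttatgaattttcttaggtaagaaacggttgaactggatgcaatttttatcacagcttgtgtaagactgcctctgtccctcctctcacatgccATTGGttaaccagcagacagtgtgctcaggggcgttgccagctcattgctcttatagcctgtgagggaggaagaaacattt
AKR1C3 promoter: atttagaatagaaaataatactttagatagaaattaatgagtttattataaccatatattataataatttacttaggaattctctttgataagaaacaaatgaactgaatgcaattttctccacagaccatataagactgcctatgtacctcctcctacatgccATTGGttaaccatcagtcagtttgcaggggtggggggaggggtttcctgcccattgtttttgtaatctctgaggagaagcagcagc
AKR1B1 promoter: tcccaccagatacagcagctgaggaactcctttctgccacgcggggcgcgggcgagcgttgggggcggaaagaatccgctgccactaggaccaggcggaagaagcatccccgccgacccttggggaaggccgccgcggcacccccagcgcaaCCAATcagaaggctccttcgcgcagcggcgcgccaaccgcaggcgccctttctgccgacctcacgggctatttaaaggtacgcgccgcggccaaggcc
The AKR1C1 and AKR1C2 windows were the same at 245 of 246 aligned bases, and AKR1C3 matched AKR1C1 at 78.6% of 234 aligned bases. Of 5 members with a window in the table used here (AKR1B10 was not analysed), the 4 printed held 1 CCAAT match each on either strand and AKR1A1 held none, against 32% of all 35116 windows of this length. None of the 5 held the antioxidant response element core TGACNNNGC, present in 10.9% of all windows, the AP-1 motif TGACTCA (4.2%), the NF-κB consensus (9.96%) or TATAAA (10.7%). Both strands were searched for each motif, and the absence of a match says only that these letters are not in this window.

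Each library held a total of 40374756 to 73850946 counts. Levels are given as counts-per-million (CPM) scaled with TMM factors. A count of 0 allows a level of up to 0.0406 to 0.0743 CPM, taken as 3 counts, which covers counting error only. As these counts are derived from coverage, they may be less than 1 fragment each, and the limit in fragments is not known. ELMO1 was lower in each siELMO1 library than in any control library of the same time point, at 0.340 ± 0.0687 CPM against 3.02 ± 0.0288 in Mock and 2.95 ± 0.339 in siNT at 0 h (SD, n = 3 each), and at 0.268 ± 0.104 CPM against 2.32 ± 0.738 and 3.32 ± 0.307 at 24 h. Of 10 endothelial markers, 9 had a mean over 1 CPM, CLDN5 being the exception. The lung epithelial markers KRT7, KRT8, KRT18 and MUC1 also passed 1 CPM, while CDH1, SFTPC and NKX2-1 were at 0 in all 18 libraries. The summed endothelial markers were higher in siELMO1 (2850 to 3051 CPM at 0 h) than in Mock (2047 to 2179) and siNT (2178 to 2264), as were the lung epithelial ones (2107 to 2229 CPM against 1521 to 1544 and 1882 to 1915). The summed fibroblast and smooth muscle markers were at 16.6 to 18.7 CPM in siELMO1 at 0 h against 7.89 to 10.6 in Mock and 5.10 to 5.64 in siNT, and the leukocyte markers were at 7.52 CPM or below in every library. The part of these markers in the values below was not tested. The hepatocyte markers ALB, TTR, SERPINA1 and CYP3A4, of a tissue rich in AKR1C enzymes, were at 0 in all 18 libraries, and APOA1 reached at most 0.150 CPM.

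Of the 6 members, 5 passed the filter on low counts and were tested among 15167 genes. AKR1C2 did not pass, since it stayed below 1 CPM in every library. To compare levels between genes, counts were divided by transcript length and scaled to transcripts-per-million (TPM). AKR1B1 was the most abundant member in every condition, with 440.0 ± 12.5 TPM in Mock at 0 h (SD, n = 3). AKR1A1 followed with 113 ± 4.55 TPM, AKR1C3 with 20.4 ± 0.758, AKR1B10 with 3.30 ± 0.350, AKR1C1 with 0.515 ± 0.108 and AKR1C2 with 0.0323 ± 0.0559. This order held for the means of all conditions. Ranges overlapped between AKR1B10 and AKR1C1 in Mock at 24 h, and between AKR1C1 and AKR1C2 in siELMO1 at 24 h.

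AKR1B1 alone made up 76.2% ± 0.941 of the summed TPM of the 6 members in Mock at 0 h, 80.02% ± 1.37 in siNT and 78.1% ± 1.45 in siELMO1 (SD, n = 3 each). After poly(I:C) its share was 92.3% ± 0.353 in Mock, 91.9% ± 0.217 in siNT and 92.2% ± 0.627 in siELMO1. The summed level of the 6 members was 577 ± 11.7 TPM in Mock, 685 ± 25.8 in siNT and 462 ± 84.0 in siELMO1 at 0 h. At 24 h it was 1658 ± 9.33, 1449 ± 41.9 and 1451 ± 48.8 TPM.

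**Figure D1:**
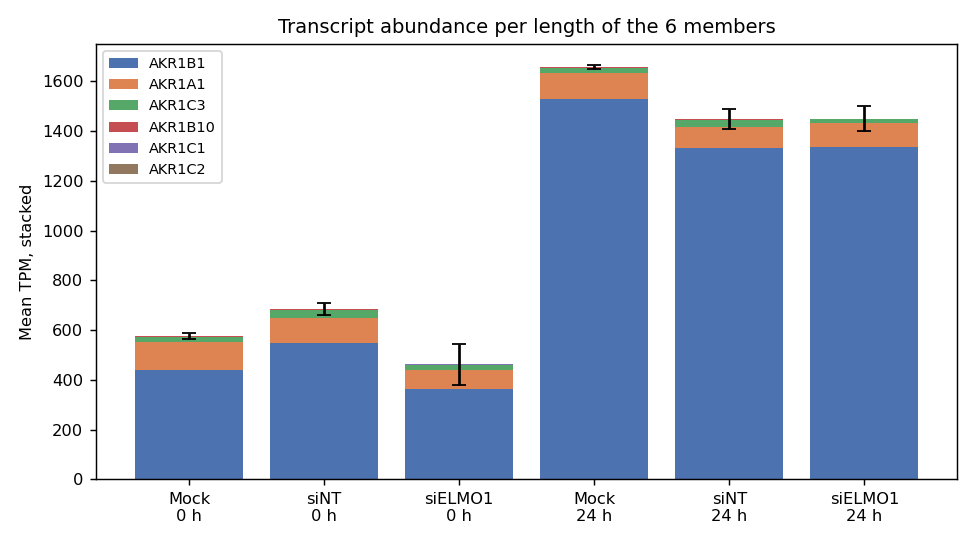
Mean TPM of the 6 members stacked by condition (3 libraries each), with the SD of the summed level as error bars. AKR1B1 fills most of every bar, and the bars are taller at 24 h (1449 to 1658 TPM) than at 0 h (462 to 685 TPM).

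The response to poly(I:C) was taken as the change from 0 h to 24 h. Every 24 h library had received poly(I:C), so its effect cannot be told apart from that of the longer culture. AKR1B1 rose in Mock, siNT and siELMO1, and AKR1B10 fell in Mock and siNT. Among the AKR1C genes, AKR1C1 and AKR1C3 rose in Mock, and neither was called in siNT. In Mock, 4 of 5 members tested were called at an adjusted p under 0.05, of all genes 60.3%. In siNT 2 of 5 were called (all genes 53.8%), and in siELMO1 3 of 5 (all genes 54.9%). The libraries of all 6 conditions entered the values by which the family was chosen, so no call here is independent of that choice. AKR1C1 in siELMO1, which stood out in it, is counted among the 3, but its p is not given. With so many genes called, the share of members called is read against these values, and the sizes below carry the description. In bulk RNA, fewer cells of a type and less RNA per cell cannot be told apart. Per the study, many siNT cells died by 24 h of poly(I:C), far fewer Mock cells did, and siELMO1 cells were protected. The part of this cell death in the siNT values at 24 h was not tested.

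AKR1B1, aldose reductase, was at 237, 242 and 249.9 CPM in the Mock libraries before and at 916, 930.25 and 921 CPM after stimulation. The siNT libraries had 318, 319 and 338 CPM before and 816, 789.9 and 775 CPM after stimulation. The siELMO1 libraries had 248, 198 and 183 CPM before and 807, 754 and 788 CPM after it. The libraries of the 2 time points did not overlap in any of the 3 conditions. Of all genes, 34.9%, 32.9% and 28.7% had every 24 h library higher in Mock, siNT and siELMO1. The log2 fold changes were 1.93 ± 0.0779 (SE) in Mock, 1.29 ± 0.0765 in siNT and 1.90 ± 0.0780 in siELMO1, with adjusted p = 4.9e-13, 1.9e-10 and 8.2e-13 (edgeR). These correspond to 3.80-, 2.44- and 3.73-fold. The response in siNT was smaller than in Mock by 0.64 ± 0.107 on the log2 scale (adjusted p = 0.0002, edgeR), a term for which 31.0% of all genes and 1 of 5 members were called. The response in siELMO1 differed from that in Mock by -0.02 ± 0.107 and from that in siNT by 0.61 ± 0.107 (log2), given without a test.

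AKR1B10, the retinal reductase next to AKR1B1 on chromosome 7, moved the opposite way. It was at 1.96, 2.12 and 2.42 CPM in Mock before and at 0.609, 0.480 and 0.993 CPM after stimulation. The siNT libraries had 2.81, 3.60 and 3.31 CPM before and 0.898, 0.983 and 1.59 CPM after stimulation. In both conditions all libraries at 24 h lay below those at 0 h, with log2 fold changes of -1.64 ± 0.324 in Mock (adjusted p = 0.00029, edgeR) and -1.48 ± 0.314 in siNT (adjusted p = 0.00069). The siELMO1 libraries had 2.18, 1.86 and 2.06 CPM before and 0.849, 1.90 and 0.860 CPM after it, so 1 library at 24 h reached the levels of 0 h. The log2 fold change there was -0.75 ± 0.314 with adjusted p = 0.051. Without that library, replicate 2, it was -1.25 (adjusted p = 0.0025), and with the replicate number as a block it was -0.77 (adjusted p = 0.044). The difference of responses between siNT and Mock was 0.16 ± 0.443 (adjusted p = 0.83).

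AKR1C1 was at 1.24, 1.10 and 0.921 CPM in Mock before and at 2.02, 2.49 and 1.40 CPM after stimulation. All libraries at 24 h lay above those at 0 h (log2 fold change 0.86 ± 0.316, adjusted p = 0.026, edgeR). The call did not hold without Mock 0 h replicate 2 or 3, or Mock 24 h replicate 1 or 2, where the log2 fold changes were 0.83, 0.72, 0.81 and 0.66 with adjusted p = 0.067, 0.1, 0.065 and 0.12. With the canonical transcript alone it was 0.71 (adjusted p = 0.21). The siNT libraries had 1.81, 2.24 and 1.78 CPM before and 2.66, 2.68 and 1.66 CPM after stimulation, which overlap (log2 fold change 0.26 ± 0.310, adjusted p = 0.49). The siELMO1 libraries had 0.667, 0.477 and 0.859 CPM before and 0.319, 0.140 and 0.420 CPM after it. There all libraries at 24 h lay below those at 0 h (log2 fold change -1.21 ± 0.362), but the counts at 0 h lay mostly on a transcript with no annotated coding sequence, described below. With that transcript left out the log2 fold change was -0.13, and with the canonical transcript alone it was -0.50.

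AKR1C3, the AKR1C member with the highest level, changed little. It was at 9.57, 10.2 and 9.79 CPM in Mock before and at 10.2, 13.4 and 13.0 CPM after stimulation (log2 fold change 0.31 ± 0.114, adjusted p = 0.026, edgeR). Without any 1 of the 3 Mock 0 h libraries, or without Mock 24 h replicate 2 or 3, its log2 fold change was between 0.24 and 0.30 with adjusted p between 0.066 and 0.12, and when scaled by library totals alone it was 0.19 (adjusted p = 0.17). In siNT and siELMO1 the log2 fold changes were -0.07 ± 0.113 (adjusted p = 0.62) and -0.07 ± 0.116 (adjusted p = 0.66). The difference of responses between siNT and Mock was -0.38 ± 0.160 (adjusted p = 0.081), and it was called without Mock 24 h replicate 1 (-0.47, adjusted p = 0.03) or siELMO1 24 h replicate 3 (-0.38, adjusted p = 0.035). AKR1A1 had log2 fold changes of -0.05 ± 0.0879 in Mock and -0.07 ± 0.0885 in siNT (adjusted p = 0.63 and 0.5). In siELMO1 AKR1A1 rose by 0.27 ± 0.0889 (adjusted p = 0.015), although its libraries overlapped: 52.7, 39.3 and 42.1 CPM at 0 h and 57.6, 56.2 and 48.6 CPM at 24 h. That call did not hold without siELMO1 0 h replicate 2 or 3, or without siELMO1 24 h replicate 1 or 2 (log2 fold changes 0.19, 0.23, 0.23 and 0.25, adjusted p = 0.093, 0.064, 0.068 and 0.052).

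**Figure D2:**
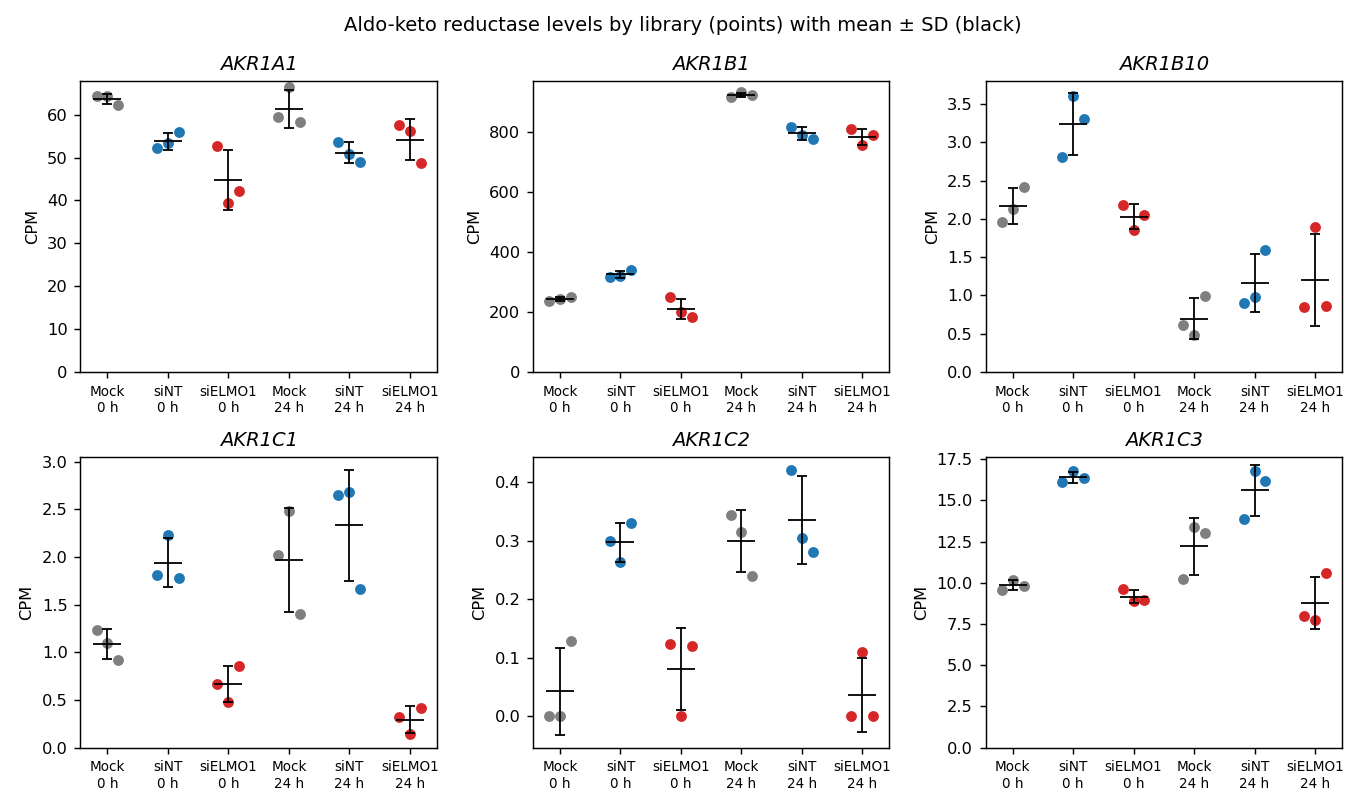
CPM of each member in each library (points, 3 per condition), with the mean and SD in black. AKR1B1 sits at 754 to 930.25 CPM in all 9 libraries at 24 h, and AKR1C1 stays at or below 0.859 CPM in the 6 siELMO1 libraries.

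The comparison of siNT with Mock described the family after transfection of an siRNA with no target. The siNT and Mock libraries also entered the values by which the family was chosen, so these calls are not independent of that choice. At 0 h, AKR1B1, AKR1C1 and AKR1C3 rose in siNT and AKR1A1 fell, so 4 of 5 members were called, of all genes 51.6%. AKR1C3 was at 16.1, 16.8 and 16.3 CPM in siNT, above the 9.57 to 10.2 CPM of the Mock libraries (log2 fold change 0.74 ± 0.114, adjusted p = 3.4e-05, edgeR). AKR1B1 was 1.34-fold higher (log2 fold change 0.42 ± 0.0756, adjusted p = 0.00016). AKR1C1 was 1.79-fold higher, with no overlap of libraries (log2 fold change 0.84 ± 0.315, adjusted p = 0.033). Without any 1 Mock 0 h library, without siNT 0 h replicate 1 or 2, or without Mock 24 h replicate 1, the AKR1C1 value was between 0.70 and 0.91 with adjusted p between 0.05 and 0.13. AKR1A1 was lower in siNT, at 52.1, 53.4 and 56.0 CPM against 64.4, 64.4 and 62.2 CPM in Mock (log2 fold change -0.24 ± 0.0880, adjusted p = 0.029), a call that did not hold without siNT 0 h replicate 1 or 2 (-0.22 and -0.24, adjusted p = 0.091 and 0.07). All siNT libraries of AKR1B10 lay above the Mock libraries, but its log2 fold change of 0.58 ± 0.303 had adjusted p = 0.12. Of all genes, 35.4% had all siNT libraries above the Mock libraries at 0 h and 30.4% had them below.

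At 24 h, 3 of 5 members were called between siNT and Mock, of all genes 50.2%, and the direction of AKR1B1 was opposite to that at 0 h. AKR1B1 was lower in siNT (log2 fold change -0.22 ± 0.0752, adjusted p = 0.023, edgeR), as was AKR1A1 (-0.26 ± 0.0885, adjusted p = 0.02), and AKR1C3 was higher (0.35 ± 0.114, adjusted p = 0.015). None of these 3 groups of libraries overlapped. Of all genes, 28.6% had all siNT libraries above the Mock libraries at 24 h and 28.8% had them below. The values are small and 1 library could end each call. Without Mock 24 h replicate 1, AKR1C3 was at 0.23 (adjusted p = 0.11). Without Mock 24 h replicate 2, AKR1A1 was at -0.20 and AKR1B1 at -0.21 (adjusted p = 0.097 and 0.054). Without siNT 24 h replicate 2, AKR1A1, AKR1B1 and AKR1C3 were at -0.26, -0.21 and 0.30 (adjusted p = 0.052, 0.058 and 0.069), and without siNT 24 h replicate 3, AKR1A1 and AKR1B1 were at -0.23 and -0.20 (adjusted p = 0.067 and 0.064). AKR1C1 and AKR1B10 had log2 fold changes of 0.24 ± 0.310 (adjusted p = 0.54) and 0.74 ± 0.329 (adjusted p = 0.071), and AKR1B10 was called without Mock 24 h replicate 3 (1.09, adjusted p = 0.02) or siELMO1 24 h replicate 2 (0.74, adjusted p = 0.033).

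The knockdown of ELMO1 gave the values on which the family was chosen, and the following is a description of them. Of the 5 members that passed the filter, AKR1C1 had the lowest siELMO1 values relative to both controls in CPM. At 24 h its 3 siELMO1 libraries, at 0.319, 0.140 and 0.420 CPM, held 21, 9 and 21 counts, while the Mock and siNT libraries held between 82 and 150. The log2 fold change was -2.76 ± 0.355 (SE) against Mock and -3.01 ± 0.356 against siNT. At 0 h it was -0.69 ± 0.330 against Mock and -1.53 ± 0.329 against siNT. At both times the highest siELMO1 library stayed below the lowest control library in CPM. In TPM at 0 h the siELMO1 and Mock libraries overlapped (0.507 ± 0.157 and 0.515 ± 0.108, SD), with siNT at 0.811 ± 0.146. With gene counts over the length of the most counted transcript, TPM at 0 h was 0.247 ± 0.0705 in siELMO1 and 0.422 ± 0.0611 in Mock. The overlap in TPM with Mock at 0 h thus depended on the assignment of counts to transcripts of different length, described below. By transcript counts, TPM at 24 h was 0.335 ± 0.372 in siELMO1, 0.954 ± 0.182 in Mock and 0.928 ± 0.129 in siNT.

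AKR1C3 was lower against siNT at both times (log2 -0.84 ± 0.115 at 0 h and -0.83 ± 0.115 at 24 h) and closer to Mock. Against Mock its log2 fold change was -0.10 ± 0.115 at 0 h and -0.48 ± 0.115 at 24 h, and the libraries overlapped at both times. AKR1B1 had -0.21 ± 0.0756 against Mock and -0.63 ± 0.0759 against siNT at 0 h. At 24 h these were -0.24 ± 0.0752 and -0.02 ± 0.0752. The siELMO1 library with the highest AKR1B1 and AKR1A1 levels at 0 h was replicate 1, without which AKR1B1 was at -0.35 against Mock. AKR1A1 had -0.51 ± 0.0887 against Mock and -0.26 ± 0.0888 against siNT at 0 h, and -0.18 ± 0.0883 and 0.08 ± 0.0886 at 24 h.

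AKR1B10 was near Mock at 0 h (-0.09 ± 0.306) and lower against siNT (-0.67 ± 0.306). At 24 h it was at 0.79 ± 0.327 against Mock and 0.06 ± 0.318 against siNT, values that were 0.30 and -0.44 without siELMO1 24 h replicate 2. Of the 5 members, 2 had all siELMO1 libraries below all Mock libraries at 0 h (AKR1A1 and AKR1C1, all genes 25.2%) and 4 had them below all siNT libraries (all but AKR1A1, all genes 33.1%). At 24 h this held for 3 against Mock (AKR1A1, AKR1B1 and AKR1C1, all genes 27.7%) and for 2 against siNT (AKR1C1 and AKR1C3, all genes 30.3%). Of these 5, only AKR1C1 reached a log2 fold change of -1 or below, against siNT at 0 h (6.87% of all genes did), against Mock at 24 h (2.39%) and against siNT at 24 h (3.03%). The comparisons with Mock and siNT share the siELMO1 libraries.

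**Figure D3:**
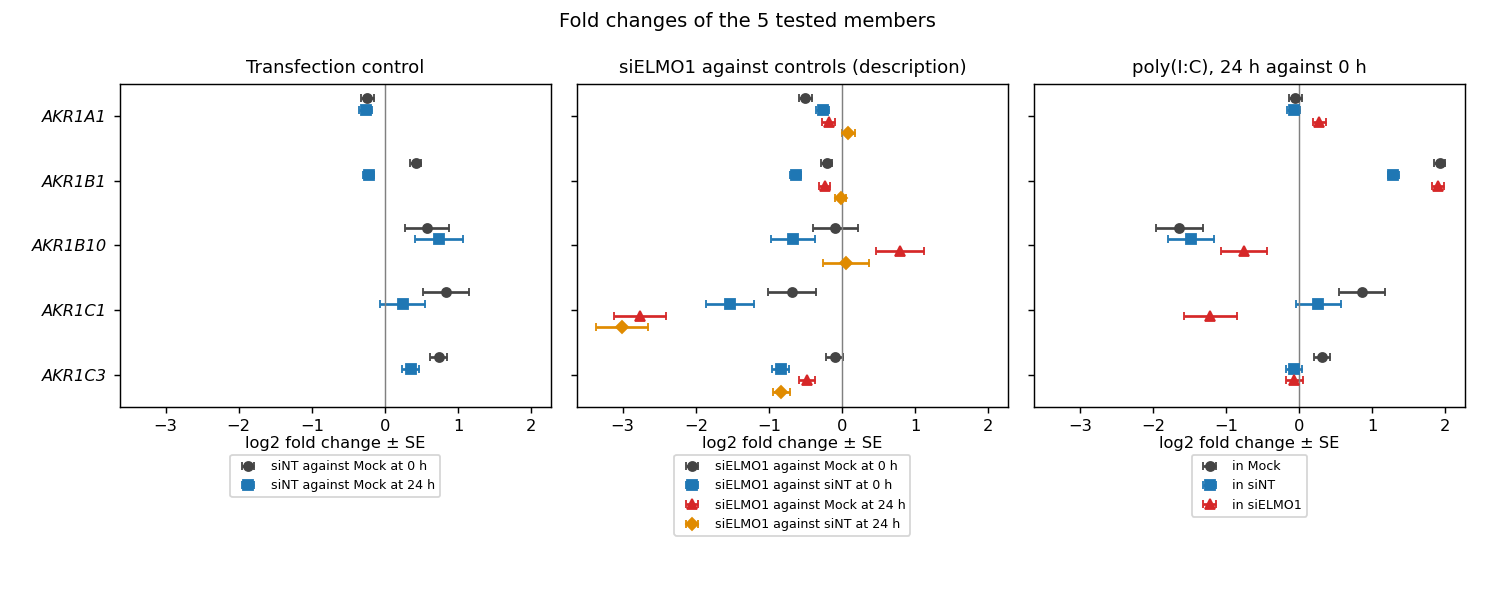
Log2 fold change with its SE (x axis) for the 5 tested members (y axis) in 3 sets of comparisons. AKR1C1 in siELMO1 at 24 h lies farthest to the left (-2.76 and -3.01), and AKR1B1 after poly(I:C) farthest to the right (1.29 to 1.93).

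AKR1C2 was too low for the test and is given by its counts. It had 0, 0 and 10 counts in Mock at 0 h, 20, 16 and 22 in siNT, and 9, 0 and 6 in siELMO1. At 24 h it had 18, 19 and 14 counts in Mock, 22, 17 and 16 in siNT, and 0, 7 and 0 in siELMO1. The siNT libraries lay above the Mock and siELMO1 libraries at 0 h, and the siELMO1 libraries lay below both controls at 24 h. The 5 libraries at 0 allow a level of up to 0.0429 to 0.0743 CPM. Without the filter on low counts (37970 genes tested) the log2 fold change of siNT against Mock at 0 h was 2.68 ± 1.13 (adjusted p = 0.12, edgeR) and that of poly(I:C) in Mock 2.69 ± 1.13 (adjusted p = 0.1). Summed with AKR1C2, AKR1C1 had siELMO1 values of -0.58 and -1.57 at 0 h and -2.79 and -3.02 at 24 h against Mock and siNT, close to those of AKR1C1 alone. The sum of AKR1C1, AKR1C2 and AKR1C3, which AKR1C3 dominates, had -0.14 and -0.91 at 0 h and -0.67 and -1.01 at 24 h. Without the filter AKR1C2 by itself was at 0.88 ± 1.16 and -1.80 ± 1.09 at 0 h and at -2.91 ± 1.17 and -3.07 ± 1.17 at 24 h, from the few counts given above.

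The AKR1C1 counts fell on different transcripts in siELMO1 and in the controls at 0 h, in shares that were not tested. The matrix holds 5 AKR1C1 transcripts, and the canonical one, ENST00000380872.9 (6543 bases, 9 exons), carried between 88.9% and 98.3% of the AKR1C1 counts in each Mock and siNT library at 0 h. In the 3 siELMO1 libraries at 0 h it held 10, 6 and 18 counts, against 72, 79 and 70 in Mock and 119, 131 and 116 in siNT. Most siELMO1 counts at 0 h, 36, 13 and 25 or 58.1% to 73.5% of the gene, were assigned to ENST00000477661.1 (2637 bases, 8 exons), a transcript with no annotated coding sequence. This noncoding transcript had 6, 0 and 0 counts in Mock and none in siNT at 0 h. At 24 h it had 9, 13 and 21 counts in Mock, none in siNT, and 0, 0 and 13 in siELMO1, where the canonical transcript had 19, 9 and 0.

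With the canonical transcript alone, a setting added after seeing the data, AKR1C1 in siELMO1 was at a log2 fold change of -2.25 ± 0.555 against Mock and -3.14 ± 0.556 against siNT at 0 h, and at -3.46 ± 0.570 and -3.92 ± 0.572 at 24 h. The difference between 0 h and 24 h seen in the gene counts was smaller on this transcript. The counts of transcripts are estimates from short reads, and with 9 to 49 AKR1C1 counts in each siELMO1 library the split between the 2 transcripts rests on few reads.

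**Figure D4:**
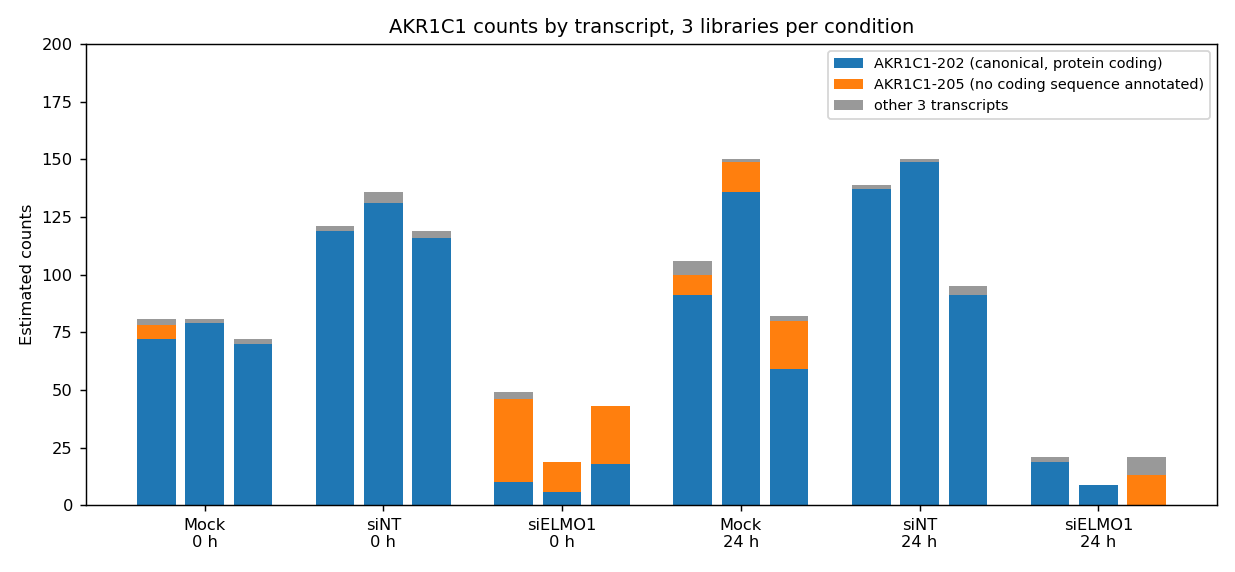
Estimated AKR1C1 counts in each of the 18 libraries (bars), split by transcript and not scaled for library size. In siELMO1 at 0 h most of each bar is the transcript with no annotated coding sequence (36, 13 and 25 counts), while 88.9% to 98.3% of each Mock and siNT bar at 0 h is the canonical one.

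The other members kept 1 main transcript or had no stable one. AKR1B1-201 carried 91.6% to 95.6% of the AKR1B1 counts of each condition, AKR1B10-201 93.3% to 100% of those of AKR1B10, and AKR1C3-201 91.3% to 97.9% of those of AKR1C3. A transcript of AKR1B1 that retains an intron held 2.52% of its counts in Mock at 0 h and 4.90% at 24 h, a share that was not tested. The AKR1A1 counts were spread over several transcripts with shares that varied between libraries: ENST00000372070.7 carried between 3.75% and 34.8% in the siNT libraries at 0 h.

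The profiles of the members over the 18 libraries were compared by the Pearson correlation of log2 CPM, as a description, since the libraries share conditions. AKR1C1 and AKR1C3 were the most alike (r = 0.804), and AKR1B1 and AKR1B10 the most opposed (r = -0.777). Among 13612 genes, the profiles nearest to AKR1B1 were those of BIRC3 (r = 0.995), PSME2 (0.994) and MSX1 (0.992), and those nearest to AKR1C1 were GHITM (0.938), DUSP12 (0.922) and RASSF8 (0.918). AKR1C3 was nearest to INTS15 (0.940), ACVR1 (0.935) and CXXC1 (0.934), AKR1B10 to REPS2 (0.912), SLC20A1 (0.902) and TOX2 (0.901), and AKR1A1 to PFAS (0.916), COMMD4 (0.913) and MZT1 (0.911). Only 2 of these 15 genes stayed among the 3 nearest when the means of the 6 conditions were used.

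Of 11 other AKR genes in the matrix, 4 were tested: AKR7A2, AKR1E2, KCNAB1 and KCNAB3. In siELMO1 against Mock, 1 was called lower and 0 higher at each time. Against siNT, 1 was called lower and 3 higher at 0 h, and 1 lower and 1 higher at 24 h. The shares of all genes called are given below with the NRF2 targets. AKR7A2, which reduces succinic semialdehyde, was lower in siELMO1 in all 4 comparisons, at 28.9 ± 2.13 CPM against 49.2 ± 0.132 in Mock and 41.3 ± 0.915 in siNT at 0 h (SD, n = 3 each), with log2 fold changes of -0.77 ± 0.0833 and -0.51 ± 0.0834 (adjusted p = 5.3e-07 and 3.4e-05, edgeR). At 24 h they were -0.56 ± 0.0842 and -0.33 ± 0.0845 (adjusted p = 3.3e-05 and 0.003). AKR1E2 was higher in siELMO1 than in siNT at 0 h (0.55 ± 0.121, adjusted p = 0.00064) and at 24 h (0.43 ± 0.121, adjusted p = 0.0061). It did not pass the test against Mock at 0 h (-0.13 ± 0.119, adjusted p = 0.39) or at 24 h (-0.15 ± 0.119, adjusted p = 0.32). AKR1B15, AKR1C4 and AKR1C8 had at most 14 counts in any library, and AKR1D1 had none.

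Most of the tested NRF2 target genes outside the family were called lower in siELMO1. This list, like the other gene lists here, was drawn up with earlier results of these data known. Its counts and p-values are therefore not independent of that choice. Of 31 tested, 22 were called lower and 3 higher against Mock at 0 h, and 27 lower and 2 higher against siNT. At 24 h 21 were lower and 3 higher against Mock, and 20 lower and 3 higher against siNT. Of all genes, 22.4% were called lower and 27.9% higher against Mock at 0 h, 31.3% lower and 31.3% higher against siNT at 0 h, 22.0% lower and 21.6% higher against Mock at 24 h, and 26.5% lower and 26.0% higher against siNT at 24 h. The medians of the list were -0.55, -0.88, -0.36 and -0.38 on the log2 scale in these 4 comparisons, against 0.04, 0.00, -0.01 and -0.01 for all genes. In siNT against Mock at 0 h, 20 of the 31 were called higher and 2 lower, of all genes 27.6% higher.

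SLC7A11, the cystine transporter, had the largest change among the named targets, at 60.1 ± 2.52 CPM in siELMO1 against 458 ± 22.1 in Mock and 483 ± 22.1 in siNT at 0 h, with log2 fold changes of -2.93 ± 0.109 and -3.01 ± 0.109 (adjusted p = 4.1e-13 and 2.3e-13, edgeR). NQO1, a quinone reductase, was at 227 ± 19.8 CPM against 608 ± 5.71 and 705 ± 25.8 (log2 -1.42 ± 0.0651 and -1.64 ± 0.0655). GCLM, a subunit of the enzyme that starts glutathione synthesis, and CBR3, a carbonyl reductase, were also lower at 0 h (log2 -1.29 and -1.35 against Mock). The thioredoxin reductase TXNRD1 and thioredoxin TXN were lower at 24 h by 1.09 and 1.08 on the log2 scale against Mock and by 1.21 and 1.44 against siNT. NFE2L2 itself, at 97.4 ± 3.09 CPM in Mock and 99.3 ± 8.18 in siELMO1 at 0 h, did not pass the test against Mock (0.03 ± 0.0541, adjusted p = 0.71, edgeR) and was lower against siNT (-0.36 ± 0.0541, adjusted p = 1.7e-05). At 24 h it was lower against Mock (-0.46 ± 0.0540, adjusted p = 2e-06) and siNT (-0.38 ± 0.0540, adjusted p = 1.4e-05). Among the targets called higher, the transporter ABCC1 had 0.76 ± 0.0431 and TSKU 0.43 ± 0.0675 against Mock at 24 h, both named after their values were seen. Against siNT at 24 h they were at -0.03 ± 0.0427 and -0.05 ± 0.0670 (adjusted p = 0.59 each, edgeR). In siNT against Mock at 24 h they were at 0.79 and 0.48. At 0 h against siNT, ABCC1 was lower (-0.23 ± 0.0426) and TSKU higher (0.35 ± 0.0677). Of 12 tested NRF2 regulators, 5 were called higher and 3 lower in siELMO1 against Mock at 0 h, and 5 higher and 4 lower against siNT. At 24 h, 3 were higher and 3 lower against Mock, and 5 higher and 3 lower against siNT. Among them BACH1, a repressor at the same response elements, was higher in all 4 comparisons (log2 0.17 to 0.56). KEAP1, which targets NRF2 for degradation, was lower in 3 of 4. Whether these genes and the members share a cause was not tested.

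**Figure D5:**
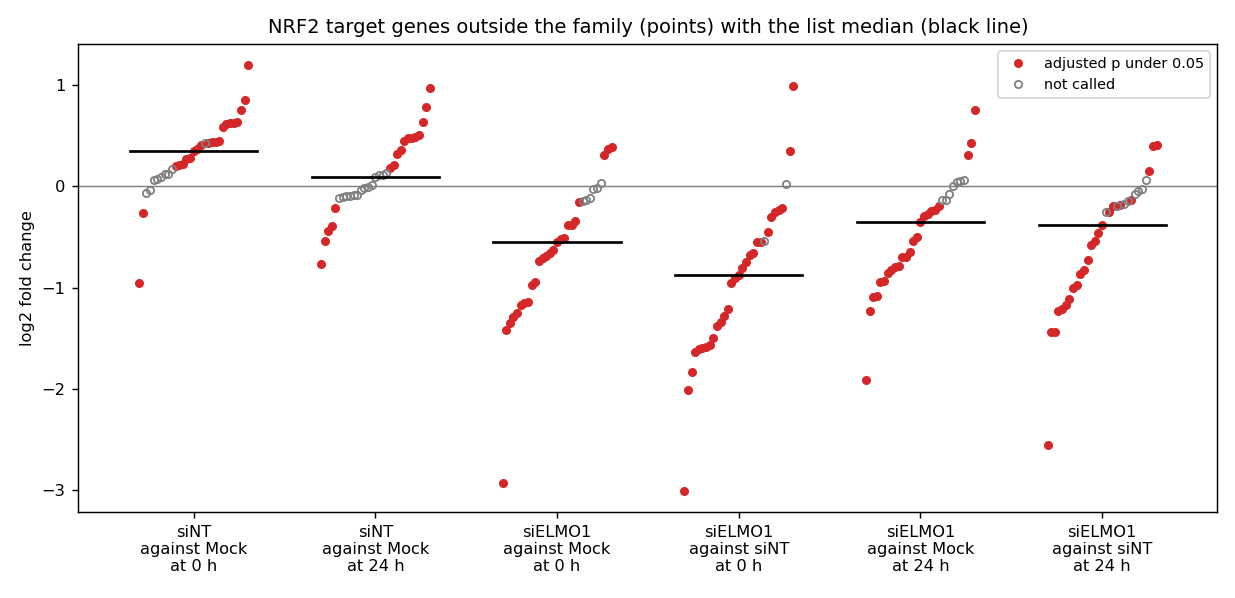
Log2 fold changes of the 31 tested NRF2 target genes outside the family (points) in 6 comparisons, ordered within each, with the list median as a black line and filled points called at an adjusted p under 0.05. The siELMO1 medians lie between -0.36 and -0.88, and that of siNT against Mock at 0 h is 0.36.

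In the other pathways of the members, some genes were called higher and others lower, and the shares of all genes given above apply. Of 27 other carbonyl reductases and aldehyde dehydrogenases, 4 were higher and 13 lower in siELMO1 against Mock at 0 h and 9 higher and 11 lower against siNT, and the reductase DHRS2 fell (log2 -2.07 ± 0.162 and -2.13 ± 0.162). Of 8 polyol and fructose pathway genes, 2 were higher and 3 lower in siELMO1 against Mock at 0 h. The fructokinase KHK fell (log2 -2.63 ± 0.244) and the glucose transporter SLC2A1 rose (0.98 ± 0.0948). Of 15 prostaglandin genes, 5 were higher and 4 lower against Mock at 0 h, and 7 were higher and 5 lower against siNT. Against Mock, the cyclooxygenase PTGS2 (2.03 ± 0.131) and the prostacyclin synthase PTGIS (1.67 ± 0.373) were higher. CBR1 (-0.63 ± 0.0509) and PTGR1 (-0.51 ± 0.0794) were lower. At 24 h PTGS2 was lower in siELMO1 than in Mock (-0.95 ± 0.123) and higher than in siNT (1.77 ± 0.128). Of 13 steroid genes, 6 were higher and none lower against Mock at 0 h by edgeR (3 to 8 higher under the alternatives), and 6 were higher and 2 lower against siNT, among them the 5α-reductase SRD5A1 (0.31 ± 0.0938 against Mock and 1.28 ± 0.0965 against siNT). Of 13 retinoid genes, 2 were higher and 3 lower against Mock at 0 h, and 3 higher and 4 lower against siNT.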

How the data were processed

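Messenger RNA of 18 libraries was sequenced with a stranded kit. Per the study's methods, the authors aligned reads with STAR to GRCh38, assembled them with StringTie on the Gencode annotation and deposited estimated counts per gene and transcript, made with the prepDE script, which are whole numbers derived from coverage and read length. The read length set in that script is not given in the sources used here. The totals exceed the number of paired reads that the methods give per library, so a count may be less than 1 fragment.

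The members and gene lists were chosen with earlier results of these data known. Genes with at least 100 counts in total and a highest CPM of at least 1 were kept (15167), scaled by TMM (0.958 to 1.06) and fitted in 1 model of the 6 conditions with the quasi-likelihood test of edgeR 4.0.16 (R 4.3.3), with Benjamini-Hochberg adjustment over all genes tested. SE is the log2 fold change over the square root of F. The common biological coefficient of variation was 12.2%. The fit was also run on simulated counts with the same spread for every gene. That run does not show how it performs at the low counts of some members. TPM was computed from transcript counts and annotated lengths. A listed symbol with several gene IDs was taken by the ID with the most counts.

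Named were all members, ELMO1, the other AKR genes and NRF2 regulators, up to 4 genes of each other list with the largest fold changes against both controls, and the 3 genes nearest to each member, from which examples are given. Alternatives were DESeq2 1.42.0, limma-voom (limma 3.58.1), other scalings and filters, a replicate block, fewer libraries and summed or single transcripts. Between conditions, deviations of same-numbered libraries correlated with a median r of 0.023 over 45 pairs (lowest -0.110, highest 0.137) over all genes tested, so the numbers were not taken as pairs. Among 9644 genes of at least 10 CPM, all 3 pairs were over 0.1 in 2 of the condition pairs.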

Additional observations from a re-analysis of the deposited data

Results flagged for a closer look

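The poly(I:C) response of AKR1B1 was smaller in siNT than in Mock, with a difference of -0.64 on the log2 scale (adjusted p = 0.0002, edgeR). It was flagged as a difference between groups. The libraries behind this p also entered the values by which the family was chosen, so the p is not independent of that choice. The alternatives gave -0.66 to -0.55. AKR1B1 was higher in siNT than in Mock at 0 h and lower at 24 h. The part of the cell death that the study reports for siNT was not tested.

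For AKR1C1, every Mock library at 24 h lay above those at 0 h and every siELMO1 library at 24 h lay below those at 0 h, with a difference of -2.07 on the log2 scale that was not tested, since the family was chosen on siELMO1. On the canonical transcript alone the difference was -1.21, and without the transcript that has no annotated coding sequence it was -0.84.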

How the results depend on the processing

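No result changed direction while called. Of the 17 calls for members in the 6 tested comparisons, 8 held under every alternative but the added fold threshold: AKR1B1 in siNT against Mock at 0 h, in the 3 poly(I:C) comparisons and in the difference of responses, AKR1B10 after poly(I:C) in Mock and siNT, and AKR1C3 in siNT against Mock at 0 h. None of the 17 calls is independent of the choice of the family, and they include AKR1C1 after poly(I:C) in siELMO1. Of 863 values compared, 62 changed their side of the threshold. The cause of these changes was not tested.

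Requiring a fold change over 2 as well left 0 members called in siNT against Mock at 0 h and at 24 h, 2 after poly(I:C) in Mock and 0 for the difference of responses between siNT and Mock. With no filter beyond 1 count, 2 were called in siNT against Mock at 0 h and 2 after poly(I:C) in Mock. Library totals without TMM factors gave 2 after poly(I:C) in Mock, where they shifted the median of all genes by -0.122 (log2). Only the libraries of the groups compared gave 1 after poly(I:C) in siELMO1. Leaving out 1 library gave 2 to 4 calls in siNT against Mock at 0 h, 0 to 4 at 24 h, 2 to 4 after poly(I:C) in Mock, 2 to 4 in siELMO1 and 1 to 2 for the difference of responses.

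For siELMO1, the number of members at a log2 fold change of -1 or below was 2 in place of 1 without the filter or with filterByExpr, since AKR1C2 then enters, against siNT at 0 h, against both controls at 24 h and for both differences of responses. With the canonical AKR1C1 transcript alone, or without the AKR1C1 transcript that has no annotated coding sequence, it was 1 in place of 0 against Mock at 0 h. The differences of responses fell to 0 members without that transcript, and for siELMO1 minus siNT also with the canonical transcript alone. Both settings were chosen after seeing the data.

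The share of AKR1B1 in the summed TPM of Mock at 0 h was 79.9% with gene counts over the length of the most counted transcript, against 76.2%. By condition means, 2 of the 15 nearest genes stayed. With the replicate block, AKR1B10 after poly(I:C) in siELMO1 was called (-0.77, adjusted p = 0.044, edgeR), and no other member's call changed. The low counts of AKR1C1, AKR1C2 and AKR1B10 limit the precision of their values. Over the alternatives, NRF2 targets called lower in siELMO1 numbered 21 to 24 against Mock and 27 to 28 against siNT at 0 h, and 19 to 22 and 18 to 22 at 24 h. Steroid genes called higher against Mock at 0 h numbered 3 to 8.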
